A study of Mus musculus with 12 samples.

Results

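Tle6, a gene of a transcriptional corepressor, and Pappa, a gene of a secreted protease, had lower signals in Ercc1-/- than in wild type cerebellum, and they are described here across both brain regions and genotypes. A probe set is the group of short probes that an array reads as 1 value, and each gene has 1 named probe set here. So 2 probe sets, 1448727_at (Tle6) and 1427633_a_at (Pappa), are described, of 45037 on the array other than controls. They stand for 2 of the 486 genes that could be named. They were found by the gene names in the authors' lists of selected probe sets. Only listed probe sets have names here, so the array may hold further probe sets of Tle6 or Pappa, whose values are not known. Both described probe sets stand in the cerebellum list and neither stands in the hippocampus list. They were therefore chosen on the comparison of genotypes in cerebellum, whose values are given below as a description with no test. Hippocampus, taken from the same mice, was not the comparison that chose them. Earlier results of these data were known when the members and rules were set, so its p-values are not those of an untouched comparison.

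Hippocampus and cerebellum came from Ercc1-/- mice (KO) and Ercc1+/+ littermates (WT) of crosses of FVB and C57BL/6, killed at postnatal day 21. Ercc1 is a partner of the nuclease Xpf in DNA repair, and both alleles are disrupted in all cells of a KO mouse. Each of the 12 arrays (Affymetrix Mouse Genome 430_2.0) holds 1 sample, with 3 arrays per region and genotype. Sex and the link between a replicate number and a mouse are not stated in the labels, so the p-values measure the spread between these samples.

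Array medians ran from 160.2 to 168.2 intensity units for hippocampus and from 154.4 to 168.2 for cerebellum, and precision is limited by the number of arrays. Ercc1 intensity was between 49.8 and 65.9 on the KO and between 175.2 and 222.6 on the WT hippocampus arrays, and between 55.9 and 70.3 against 115.2 to 223.4 in cerebellum, so every array matched its genotype label. The first principal component of the hippocampus arrays, with 59.6% of the variance, did not follow genotype: KO 1, KO 3 and WT 1 lay on one side of it. That of the cerebellum arrays, with 41.15%, did not follow genotype either. KO 1, WT 1 and WT 3 had positive scores there, though WT 3 (0.0356) and KO 3 (-0.0165) lay near 0. Among the cerebellum arrays KO 1 stood apart in the ratio of the 3' to the 5' control probe set of Gapdh, a sign of RNA quality, at 1.497 where the others had 0.999 to 1.202. The regional tables were deposited separately and their joint normalization is not known, so levels set across regions below are given as values with no test. The labels of the tissues were checked with the 3 named markers of cerebellar granule neurons, whose summed intensity was between 11413 and 12917 on the WT cerebellum and between 3503 and 3671 on the WT hippocampus arrays.

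Tle6 belongs to the Groucho family of transcriptional corepressors, proteins that are recruited by DNA-binding factors and silence the genes these bind. It is a divergent member of the family, and in the mouse oocyte it is part of the subcortical maternal complex, which early embryos need. Pappa is a secreted metalloprotease. It cleaves binding proteins of insulin-like growth factors (IGF), chiefly Igfbp4, and so frees IGF to reach its receptor, while the stanniocalcins inhibit it.

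RefSeq (GRCm38.p6) annotates Tle6 on chromosome 10, with Tle2 and Sirt6 as the nearest coding genes in its order, and Pappa on chromosome 4, between Tnc and Astn2. Tle2 and, next to it, Tle5 are of the same Groucho family. Neither these genes nor any other of the 4 coding genes on each side of Tle6 could be named on the array. Of the 4 coding genes on each side of Pappa, only Tnc could be named, so the others there are not described. The arrays' files name no genome build, and no file says which exons the probes read.

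The RefSeq promoter table holds 2 start sites of Tle6, shown because Tle6 had the larger difference and because no file says which of its transcripts the probes read. Each window runs from 250 bases before the start to 50 after it, 5′ to 3′ on the minus strand of GRCm38.p6, the first at chr10:81600851-81601150 and the second at chr10:81597318-81597617. Capitals mark matches to CACGTG, the palindromic core of an E-box, and to the GC box GGGCGG, on either strand.
Tle6 start 1: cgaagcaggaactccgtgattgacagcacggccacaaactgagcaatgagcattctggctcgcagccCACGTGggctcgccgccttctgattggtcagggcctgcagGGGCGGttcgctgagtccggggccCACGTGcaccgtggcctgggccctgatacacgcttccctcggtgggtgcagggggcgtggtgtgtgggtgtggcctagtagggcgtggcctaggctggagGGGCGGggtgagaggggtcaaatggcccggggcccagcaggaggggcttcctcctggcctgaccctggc
Tle6 start 2: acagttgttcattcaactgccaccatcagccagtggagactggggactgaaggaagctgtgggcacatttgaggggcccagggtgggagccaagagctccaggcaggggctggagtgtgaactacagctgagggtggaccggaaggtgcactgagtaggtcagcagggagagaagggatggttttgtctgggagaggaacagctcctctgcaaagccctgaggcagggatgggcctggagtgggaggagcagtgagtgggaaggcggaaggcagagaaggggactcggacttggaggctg

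The window of start 1 was rich in G and C (68.0%, above 87.4% of all windows) and held 18 CG pairs, whereas that of start 2 lay above 70.5% of windows in G and C and held 3. Start 1 had 2 matches to CACGTG, which 0.594% of the 32851 windows have at least as often, and 2 to GGGCGG, which 19.5% have. It also had 1 match to CCAAT, found in 37.4% of windows. Start 2 had none of these 3 motifs. The wider E-box CANNTG, which takes in CACGTG, matched 3 times in start 1 and 4 times in start 2 (17.6% of windows have 3 or more matches). Neither window had TATAAA (13.6% of windows) or the forkhead motif GTAAACA (3.65%). These matches are descriptions of letters, chosen with the sequences in view.

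Tle6 was lower in KO cerebellum, at 0.484 of its WT mean. Its intensity on the WT cerebellum arrays was 495.8, 407.3 and 460.8 for replicates 1, 2 and 3, and on the KO arrays 220.4, 213.6 and 225.7. The groups lay far apart, the lowest WT array being 181.6 above the highest KO array. The KO arrays also lay closer together, with a mean of 219.9 ± 6.07 against 454.6 ± 44.6 in WT (SD, n = 3 each). On the scale used for all fold changes here, log2(intensity + 32), the change was -0.95 ± 0.10 (SE from limma), and on this scale a change is understated for dim probe sets. In bulk tissue, fewer cells that express a gene and less RNA per cell cannot be told apart.

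In hippocampus no such difference was seen for Tle6. WT intensity was 164.2, 205.5 and 179.9, and KO intensity 193.3, 186.9 and 214.6. The groups overlapped, with means of 183.2 ± 20.8 in WT and 198.2 ± 14.5 in KO (SD, n = 3 each). The log2 change was 0.10 ± 0.11 (SE), with a 95% confidence interval from -0.16 to 0.36 (limma, adjusted p = 0.99992 over 27022 probe sets). A two-sided exact permutation test of the 3 against 3 arrays gave p = 0.4, where 0.1 is the smallest this design allows. Of all probe sets tested there, 20.7% had a change at least as high.

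**Figure D1:**
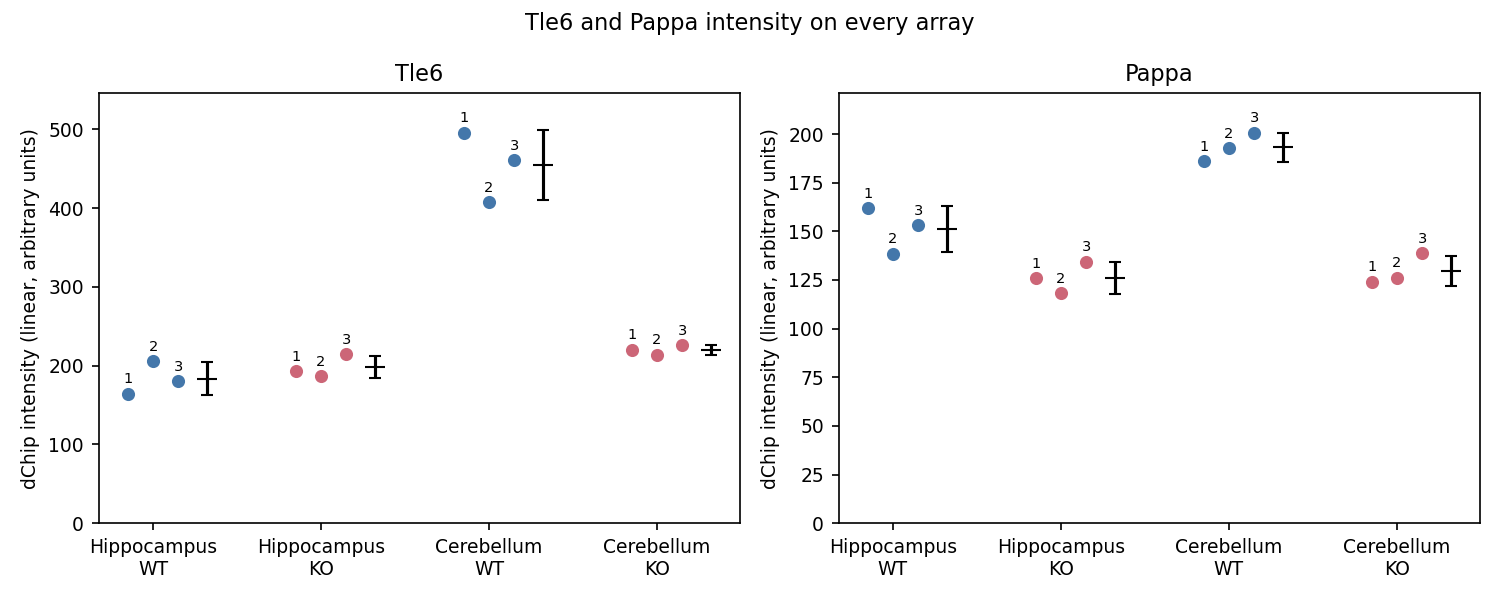
Intensity (linear dChip values, vertical axes from 0) of the Tle6 and Pappa probe sets on each of the 12 arrays; points are arrays labelled with their replicate number, and the black bar is the mean with the SD of 3 arrays. The 3 WT cerebellum arrays stand above all others for both genes, between 407.3 and 495.8 for Tle6 and between 186.0 and 200.8 for Pappa.

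The level of Tle6 in KO cerebellum was near its level in hippocampus. Set in order by their means, the groups ran from WT hippocampus (183.2) through KO hippocampus (198.2) and KO cerebellum (219.9) to WT cerebellum (454.6). The hippocampus groups overlapped each other, and the highest KO hippocampus array, at 214.6, lay above the lowest KO cerebellum array, at 213.6. WT cerebellum was the only group without overlap with its neighbour in this order. The WT mean in cerebellum was 2.48 times that in hippocampus, and the KO mean 1.11 times, across tables that may have been normalized apart. The KO effect in cerebellum minus that in hippocampus was -1.05 ± 0.14 (SE, log2), given with no test because it contains the comparison on which Tle6 was chosen.

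Pappa was lower in KO cerebellum, at 0.671 of its WT mean. Its WT cerebellum intensity was 186.0, 192.6 and 200.8, and its KO intensity 124.1, 126.1 and 138.6. The gap between the lowest WT and the highest KO array was 47.3, several times the spread within either group. The means were 193.1 ± 7.41 in WT and 129.6 ± 7.87 in KO (SD, n = 3 each), and the change was -0.48 ± 0.09 (SE, log2).

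In KO hippocampus Pappa was lower as well, by a smaller amount that did not pass the test. WT intensity was 161.7, 138.4 and 153.2, and KO intensity 125.8, 118.2 and 134.5. Every KO array lay below every WT array, but by only 3.91 at the closest. Of all probe sets tested in hippocampus, 4.44% had every KO array below every WT array, and 6.07% had a change at least as low. The means were 151.1 ± 11.8 in WT and 126.2 ± 8.16 in KO (SD, n = 3 each), a ratio of 0.835. The log2 change was -0.21 ± 0.10 (SE), with a 95% confidence interval from -0.44 to 0.02 (limma, unadjusted p = 0.0642 and adjusted p = 0.99992). The exact permutation p was 0.1, the smallest possible here. No probe set passed an adjusted p of 0.05 in hippocampus (0%, limma), while 2.18% were lower and 1.53% higher at an unadjusted p under 0.05.

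The order of the Pappa groups by their means was KO hippocampus (126.2), KO cerebellum (129.6), WT hippocampus (151.1) and WT cerebellum (193.1). The KO groups of the regions overlapped, and KO cerebellum overlapped WT hippocampus by a fraction of 1 intensity unit, at 138.6 against 138.4. The WT mean in cerebellum was 1.28 times that in hippocampus and the KO mean 1.03 times. The KO effect in cerebellum minus that in hippocampus was -0.27 ± 0.11 (SE, log2, no test for the reason given for Tle6). For both genes, then, the WT arrays of the regions did not overlap and the KO arrays did, while the hippocampus change was 0.10 for Tle6 and -0.21 for Pappa. The Pappa KO intensities, from 118.2 to 138.6, lay below the lowest array median of 154.4. Outside WT cerebellum, Tle6 lay between 164.2 and 225.7, where array medians reached 168.2. No detection limit was set here, and the part of background signal in these levels was not tested.

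In the comparison that chose them, the members lay far out among all probe sets. In cerebellum 0.037% of the 27022 probe sets had a log2 change as low as that of Tle6 and 0.366% one as low as that of Pappa, where the median over all was -0.015. Every KO array lay below every WT array in 4.17% of probe sets, and no probe set passed an adjusted p of 0.05 (0%, limma, with 1.51% lower and 2.82% higher at an unadjusted p under 0.05). Ranked by p among those lower, Tle6 was at place 2 and Pappa at place 4. Just before Tle6 stood a probe set with no name here (-2.64 ± 0.27), and between both members stood the hydrolase gene Nudt19 (-0.72 ± 0.09). Just after Pappa came a probe set that the authors list under several genes (-0.60 ± 0.12, log2 change and SE). In the authors' deposited table Tle6 has the largest negative fold of the 100 lower probe sets, -2.07, with an unadjusted p of 0.0107. The authors' deposited table gives Pappa a fold of -1.49, at place 9, and an unadjusted p of 0.000536, the smallest of the 100.

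**Figure D2:**
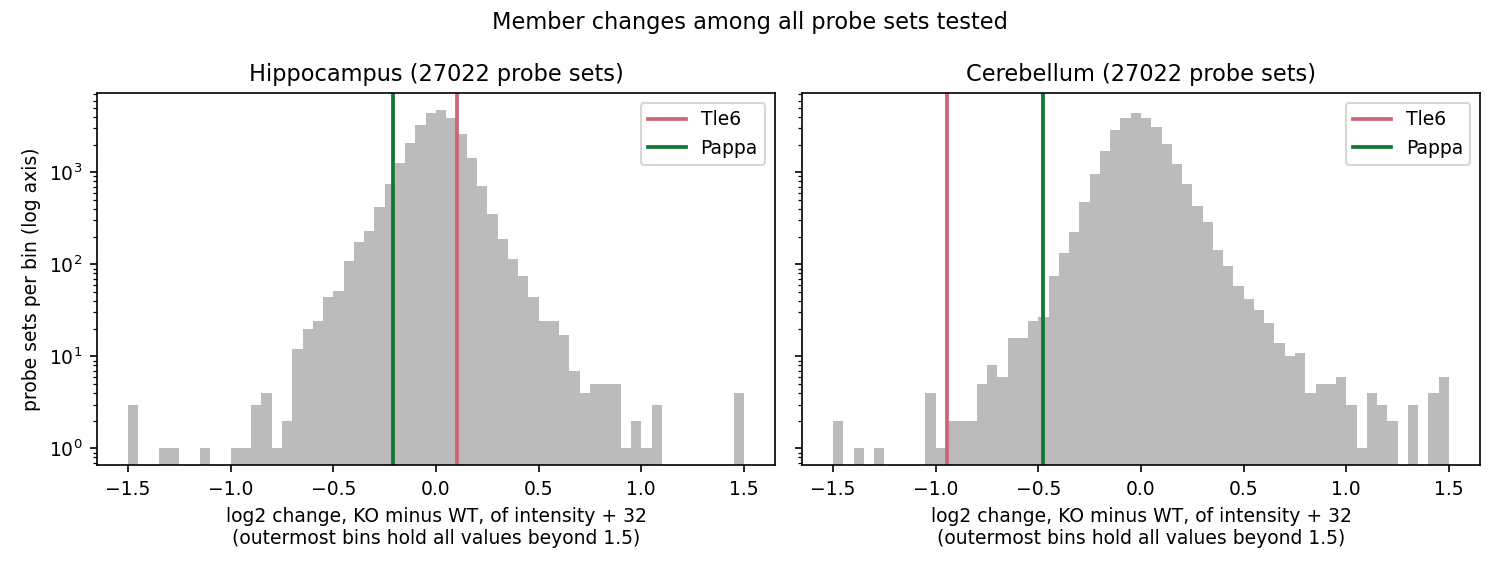
Number of probe sets (log axis) by log2 change, KO minus WT, in hippocampus and cerebellum, with the changes of Tle6 and Pappa as vertical lines. In hippocampus both lines, at 0.10 and -0.21, cross the body of the distribution, and in cerebellum, the comparison on which both were chosen, they cross its lower tail at -0.95 and -0.48.

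Few partners of the members could be named, since gene names exist only for the 610 probe sets that the authors selected. None of 24 listed Groucho family genes and partners and none of 6 genes of the subcortical maternal complex could be named (0 in each). Of 28 genes of the IGF axis, 3 could be. All 3 had log2 changes above 0 in both regions, with a median of 0.06 in hippocampus and 0.31 in cerebellum, and none passed the test in either region (0 higher and 0 lower, as for 0% of all probe sets). The median over all probe sets was 0.007 in hippocampus and -0.015 in cerebellum, and the 3 genes have names here only because the authors selected them for a difference. The Igfbp4 and stanniocalcin genes were not among them, so neither the main substrate nor the inhibitors of Pappa are described.

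Igfbp3, the main carrier of IGF in blood, was higher in KO hippocampus. Its WT hippocampus intensity was 315.3, 343.5 and 347.0, and its KO intensity 531.8, 579.6 and 456.1. The groups did not overlap (4.48% of probe sets had every KO array above every WT array), with a log2 change of 0.59 ± 0.11 (SE), given with no test since the authors selected Igfbp3 on these arrays. In cerebellum, where Pappa had the larger difference, the groups of Igfbp3 overlapped at 0.24 ± 0.13. Foxo1, a transcription factor held out of the nucleus by insulin and IGF signalling, had 0.06 ± 0.09 in hippocampus and 0.31 ± 0.10 in cerebellum. Htra1, a secreted serine protease that can cleave IGF binding proteins, had 0.02 ± 0.08 and 0.36 ± 0.08. Igfbp3 is in the authors' hippocampus list and Foxo1 and Htra1 are in their cerebellum list, so each was named for its difference in that region.

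Markers of other cells differed in level on the same arrays. In cerebellum 7 of 12 microglia markers could be named, and their summed intensity was between 1936 and 2477 on WT and between 3886 and 4280 on KO arrays. For 5 of 9 astrocyte markers it was between 8826 and 9930 on WT and between 11991 and 13184 on KO arrays, and for 4 of 9 oligodendrocyte markers between 8262 and 9563 against 11054 to 13215. Of the single genes, 7 of 7 microglia, 4 of 5 astrocyte and 4 of 4 oligodendrocyte markers were higher in KO cerebellum. For the 3 named of 17 granule neuron markers the sums overlapped, from 11413 to 12917 on WT and from 10475 to 12150 on KO arrays. In hippocampus the sums of the same genes were between 9931 and 11179 on WT and between 11832 and 12341 on KO arrays for microglia, and between 17229 and 17553 against 17925 to 18924 for astrocytes. Of the single genes there, 6 of 7 microglia and 4 of 5 astrocyte markers were higher. The lower astrocyte marker had every KO array below every WT array, as had 4.44% of all probe sets. The sums of oligodendrocyte markers went the other way, from 12273 to 17365 on WT and from 11606 to 12111 on KO arrays, with 4 of 4 genes lower. The sums of granule neuron markers overlapped there too, from 3503 to 3671 against 3320 to 3632, but the single genes did not. For 2 of the 3 every KO array lay below every WT array (4.44% of all probe sets). For the other 1 every KO array lay above (4.48%), so opposite changes met in the sum. All 3 are in the authors' hippocampus list. None of the markers printed here was at 0 on any array. The authors selected all of these markers in 1 region or the other, and the part of cell numbers in the values of Tle6 and Pappa was not tested.

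The genes whose pattern was most like that of each member were sought among the 499 probe sets with 1 current symbol that were measured in both regions, as Pearson's r over the 12 arrays after each region's mean was subtracted. All of these had been selected by the authors for a difference between genotypes, which the measure takes in, so r is given as a description. The arrays share their region, genotype and array quality. Pappa itself had r = 0.78 with Tle6 and was 12th of 498 in likeness to it, and Tle6 was 25th in likeness to Pappa. When the genotype means were subtracted as well, leaving only differences among arrays of a group, r between the members was -0.22.

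Closest to Tle6 was Nab2 (r = 0.89, Spearman's rho = 0.83), a corepressor of Egr transcription factors. It had WT cerebellum intensities of 1138, 861.8 and 912.9 and KO intensities of 680.5, 623.7 and 600.2, a log2 change of -0.58 ± 0.12 (SE). In hippocampus its groups overlapped, as those of Tle6 did, at 0.02 ± 0.11. Bend6, a BEN domain protein of the Notch pathway, followed with r = 0.84, Shank3, a scaffold of excitatory synapses, with 0.84, Prkag1, a subunit of AMP-activated protein kinase, with 0.83 and the water channel gene Aqp6 with 0.83. These 5 had cerebellum changes between -0.58 and -0.29 and hippocampus changes between -0.12 and 0.11. The probe sets of Prkag1 and Aqp6 carry the suffixes _x_at and _s_at, which mark probes that can also match other transcripts. So do those of Htra1 (_x_at) and Igfbp3 (_s_at) above and of Cdkl2 (_s_at) below. Least like Tle6 were the growth factor gene Fgf7 (r = -0.93), Nos1, neuronal nitric oxide synthase (-0.93), and Plppr1 (-0.92), with cerebellum changes of 0.82 ± 0.12, 0.36 ± 0.07 and 0.71 ± 0.11 (SE). With genotype means subtracted too, their r with Tle6 was -0.54, 0.10 and -0.31, and that of Nab2 was 0.38.

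Closest to Pappa were Cdkl2, a kinase gene (r = 0.88), Cycs, cytochrome c (0.88), Tnc, tenascin C of the extracellular matrix (0.88), Prkg1, a cGMP-dependent kinase (0.87), and Nudt19 (0.86). As with Pappa, these had changes below 0 in both regions, between -0.77 and -0.30 in cerebellum and between -0.85 and -0.17 in hippocampus. Nudt19, whose rho with Pappa was 0.62, lies on the same chromosome as the targeted gene Ercc1. Unlike Pappa, it had the larger change in hippocampus, -0.85 ± 0.08 against -0.72 ± 0.09 in cerebellum (SE). Whether the change of Nudt19 goes with the targeted locus was not tested. Tnc is also the gene next to Pappa among coding genes on chromosome 4. Its WT cerebellum intensities were 658.5, 635.0 and 606.8, and its KO intensities 314.9, 313.8 and 465.5, without overlap, a log2 change of -0.77 ± 0.15. In hippocampus it had 327.2, 382.2 and 280.6 in WT against 233.4, 217.8 and 274.6 in KO, a change of -0.40 ± 0.14 (SE). The groups did not overlap there either, but by only 6.01 at the closest. Every KO array lay below every WT array in 4.17% of all probe sets in cerebellum and in 4.44% in hippocampus. These values are given with no test, since Tnc was picked for its likeness to Pappa on the same arrays.

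The 3 genes least like Pappa had an r further from 0 than any of these. Itih3, a heavy chain of inter-alpha-trypsin inhibitor (r = -0.98, rho = -0.95), Minar2 (-0.97) and Aldoc, an aldolase of astrocytes (-0.96), were higher where Pappa was lower. Itih3 intensity was 1211, 1130 and 982.4 on WT and 2321, 2345 and 1853 on KO cerebellum arrays, and 770.5, 1069 and 782.1 against 1434, 1354 and 1108 in hippocampus. Its groups overlapped in neither region (5.3% of probe sets in cerebellum and 4.48% in hippocampus had every KO array above every WT array). The log2 changes of Itih3 were 0.95 ± 0.12 in cerebellum and 0.56 ± 0.16 in hippocampus (SE, both regions in the authors' lists). With genotype means subtracted too, r with Pappa was -0.91 for Itih3, the lowest of 498 probe sets, -0.85 for Aldoc and -0.80 for Minar2. None of the 5 genes closest to Pappa stayed among its closest 5 under that measure (0 of 5), and none did for Tle6 (0 of 5).

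**Figure D3:**
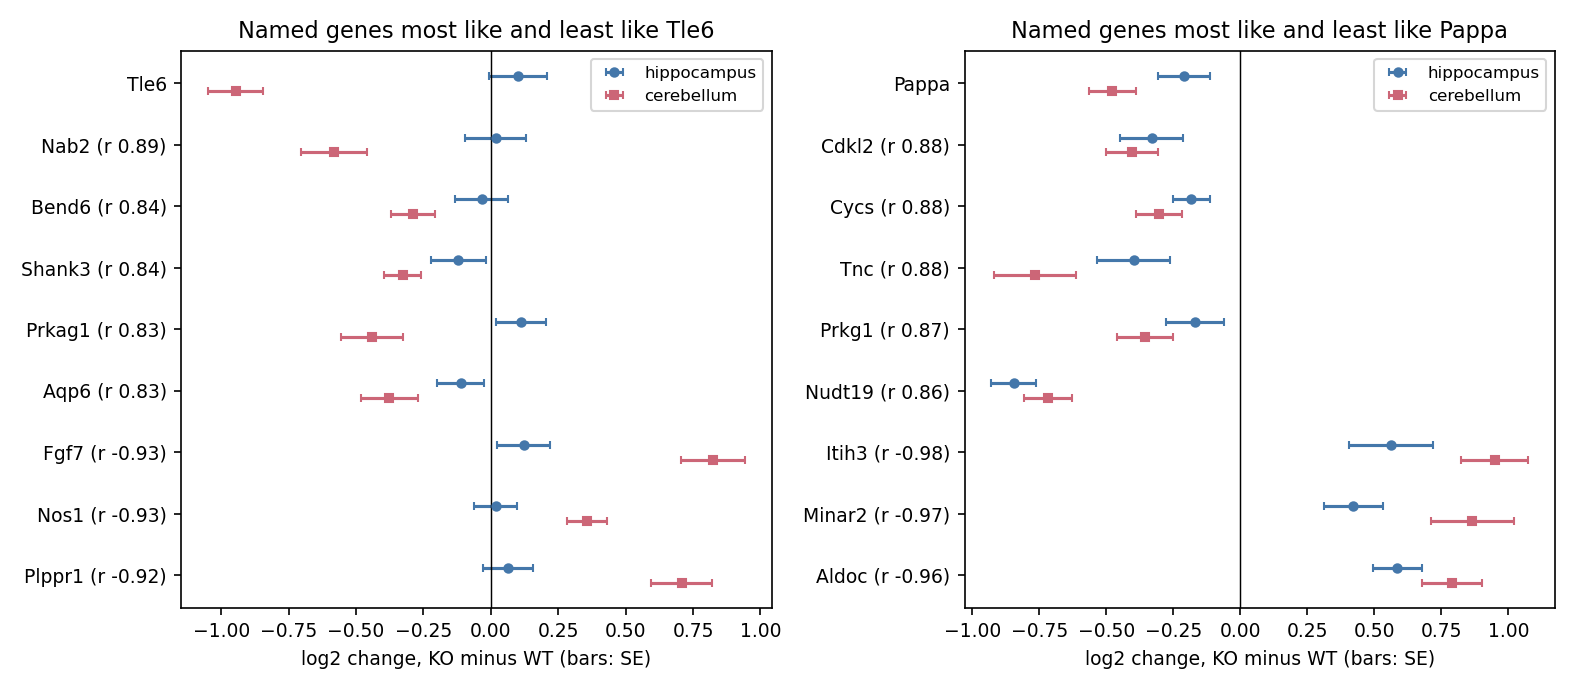
Log2 change, KO minus WT (points, with SE bars), in hippocampus and cerebellum for each member and, below it, the 5 named genes with the highest and the 3 with the lowest r to it over the 12 arrays. The genes most like Tle6 lie near 0 in hippocampus, between -0.12 and 0.11, and those most like Pappa lie below 0 in both regions.

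The values of both members moved little when any one array was left out. Tle6 in cerebellum ranged from -1.02 to -0.89 and Pappa from -0.52 to -0.45, and without KO 1, the array with the high Gapdh ratio, they were -0.95 and -0.45. In hippocampus Tle6 ranged from 0.04, without WT 1, to 0.17, without WT 2, and Pappa from -0.26 to -0.17. Within the sides of the first component of hippocampus, each with 1 genotype on a single array, Pappa had -0.26 and -0.24, whereas Tle6 had 0.26 and -0.04.

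**Figure D4:**
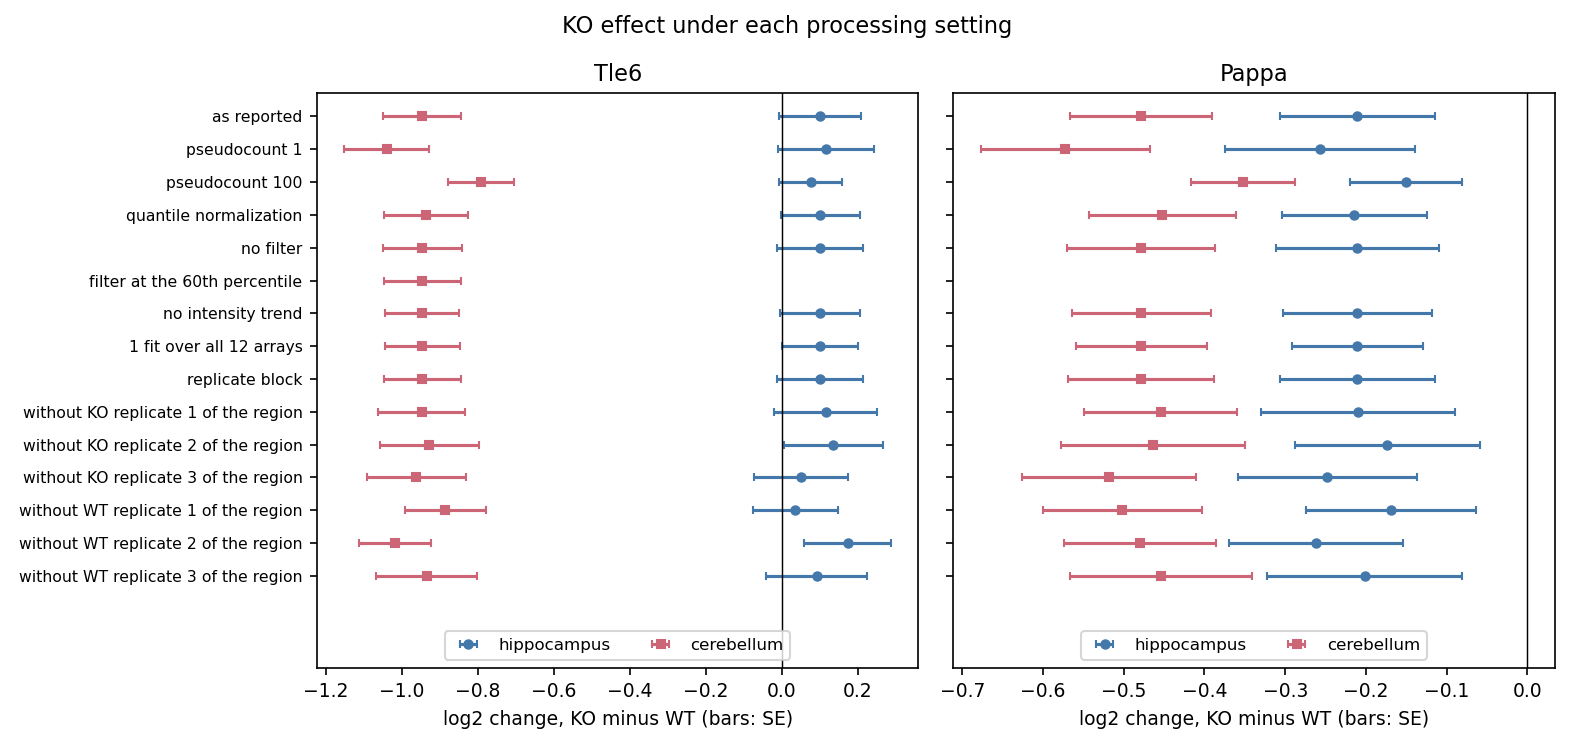
Log2 change, KO minus WT (points, with SE bars), of Tle6 and Pappa in both regions under each processing setting and with each array of the region left out. The cerebellum values stay between -1.04 and -0.79 for Tle6 and between -0.57 and -0.35 for Pappa, the hippocampus values of Pappa stay below 0, and a setting with no point left the probe set out.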

How the data were processed

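Total RNA of hippocampus and cerebellum was labelled and hybridised to 12 arrays, per the labels' protocols. The authors deposited intensity values, linear and model-based, made with dChip per the series' design text. Neither label nor header states the dChip version, the background step or how arrays were normalized. The authors also deposited group means and standard errors as intensity, and short lists of selected probe sets. In these the authors give a signed fold change, a score, and an unadjusted p-value, per the file headers. The value matrix equalled the region tables (largest difference 0), no pair of arrays was identical (0), and no sample column was left unused (0).

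Of 610 listed probe sets, 538 had 1 current symbol through the RefSeq table of GRCm38.p6 (4 by accession, 42 by synonym), 21 named several genes and 51 had none. Values were analysed as log2(intensity + 32). Probe sets above the 40th percentile of a region's mean log2 value entered its fit (27022 each), which both members passed. KO was compared with WT per region with limma 3.58.1 in R 4.3.3 (eBayes with an intensity trend, Benjamini-Hochberg at 0.05), and the regional difference came from 1 fit over all arrays. Adjusted p-values are from limma. The fits were also run on simulated data with independent noise for each probe set, which lacks the structure that real arrays share. Such a run does not show how the fits behave on these arrays. Plots, with matplotlib 3.10.9, exact tests, with SciPy 1.17.1, and file handling, with pandas 2.3.3 and NumPy 2.4.6, were done in Python 3.11.15.

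The members, lists and rules were chosen with earlier results of these data known. The rule named the members, Ercc1, all listed IGF and Groucho genes that could be named, the 5 highest and 3 lowest genes by r, and the neighbours in the p ranking; some listed genes and 1 marker list are not reported here. Listed besides were markers of granule, developing and hippocampal neurons, interneurons, astrocytes, microglia, oligodendrocytes, fibroblasts, red blood cells, endothelium and choroid plexus. Alternatives changed the pseudocount, filter, normalization, trend, samples fitted, replicate block and arrays.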

Additional observations from a re-analysis of the deposited data

How the results depend on the processing

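No alternative took the hippocampus test of either gene past the threshold (adjusted p from 0.941 for Tle6 and from 0.867 for Pappa, limma). A filter at the 60th percentile left out both genes in hippocampus and Pappa in cerebellum, so it gave no value there or for the regional difference. Tle6 in hippocampus was -0.035 on the arrays with a negative score on the first component, a split added after seeing the data, against 0.26 on the others, and 0.10 over all. The pseudocount sets the size of the cerebellum change. It was -0.79 with 100 for Tle6, and -0.57 with 1 and -0.35 with 100 for Pappa, and the regional difference of Tle6 was -1.16 and -0.87. Cerebellum arrays with a negative score gave -0.80 for Tle6. The regional difference ranged from -1.12 to -0.98 for Tle6 and from -0.31 to -0.22 for Pappa with 1 array left out. The likeness of both members turned from 0.78 to -0.22 within groups. Probe sets past the threshold numbered 0 in each region, and 0 to 5 in hippocampus and 0 to 2 in cerebellum with 1 array left out (5 without WT 2 of hippocampus; 2 without KO 1 or WT 2 and 1 without WT 1 of cerebellum). With 1 fit over all arrays they numbered 4 and 32, at the 60th percentile 1 in cerebellum, and at an unadjusted p under 0.05, 1003 and 1169. The causes were not tested.

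The labels do not say whether replicate numbers pair the samples. Same-numbered KO and WT arrays had residual correlations from -0.50 to 0.68 in hippocampus and from -0.24 to 0.34 in cerebellum. Same-numbered arrays of both regions had 0.58, 0.54 and -0.27 in KO and -0.02, 0.13 and -0.19 in WT. Arrays with unlike numbers were not compared, so these values do not decide whether the numbers carry a pairing. The replicate block left the log2 changes at 0.10 and -0.21 in hippocampus and -0.95 and -0.48 in cerebellum, with 0 probe sets past the threshold in both.

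Of the remaining marker lists, developing neurons (Ccnd1, -0.52 in hippocampus and -0.10 in cerebellum), fibroblasts (medians -0.02 and 0.52) and red blood cells (Alas2, -0.64 and -0.54) held 1 or 2 named genes, and interneurons, hippocampal neurons, endothelium and choroid plexus none (0).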
